A study of Mus musculus with 24 samples.

Results

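Expression of 10 Wnt target and feedback genes was followed through differentiation of mouse embryonic stem cells with and without Atf3. The genes were Tcf7, Lef1, Sp5, Sp8, Axin2, Nkd1, Notum, Rnf43, Rspo3 and Lgr5, chosen by symbol from the 53465 genes of the deposited expression table, where all 10 had a row. RNA was sequenced from wild-type (WT) cells and from cells labelled Atf3 knockout (KO), each before differentiation (day 0) and on days 3, 6 and 9, with 3 libraries in each of the 8 groups. Atf3 encodes a transcription factor of the ATF/CREB family, and the series asked how its loss affects the formation of mesoderm and endothelium. Stem cells of both genotypes were grown in serum with leukaemia inhibitory factor, the MEK inhibitor PD0325901 and CHIR99021, an inhibitor of the kinase GSK3. For the differentiation medium, whether CHIR99021 stayed in it, the edited part of Atf3, the number of KO clones and whether the 3 libraries of a group were separate cultures, the labels hold no entry. The p-values therefore rest on library-to-library spread alone, and that spread may be technical.

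Canonical Wnt signalling turns on the stability of beta-catenin, which GSK3 marks for destruction inside a complex built on an axin scaffold. When a Wnt ligand binds Frizzled and LRP receptors, or when GSK3 is inhibited directly, beta-catenin accumulates, enters the nucleus and activates genes together with DNA-binding proteins of the TCF/LEF family. Several of the genes activated act back on the pathway: Axin2 rebuilds the destruction complex, Nkd1 binds Dishevelled, Notum removes the lipid from Wnt ligands, and Rnf43 clears Frizzled from the cell surface unless an R-spondin such as Rspo3 engages an Lgr receptor such as Lgr5. In the embryo the pathway is needed for the primitive streak and mesoderm, and in embryonic stem cells GSK3 inhibition helps to maintain pluripotency.

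Depth was 7855631 to 25274436 reads per library, as recovered from the deposited values, which are FPKM (fragments per kilobase of gene, scaled by library). Stem cell markers marked the day 0 libraries: their summed FPKM over 7 genes was 1662 to 1699 in WT and 1621 to 1719 in KO at day 0, against 30.2 to 106 and 31.6 to 70.2 at day 6. Atf3 was lower in KO than in WT libraries at each day, with means ± SD (n = 3) of 0.172 ± 0.0417 against 1.86 ± 1.04 FPKM at day 0 and 0.534 ± 0.180 against 15.0 ± 1.23 FPKM at day 9. The log2 difference for Atf3 passed the test at days 3, 6 and 9 (limma, adjusted p = 0.0107, 8.13e-04 and 5.86e-05) but not at day 0 (adjusted p = 1), where the groups did not overlap. At day 6 the library labelled KO replicate 3 held 4.17 FPKM of Atf3, above the 0.343 and 0.578 FPKM of KO replicates 1 and 2 and below the 10.9 to 24 FPKM of WT. Reads in 3 genes of ribosomal RNA type made up 4.42% to 45.6% of a library, with the top value in WT day 6 replicate 3 and 6.10% in KO day 6 replicate 3.

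Upstream sequence is shown for 3 of the genes, since TCF/LEF proteins recognise a short core and the genes differ in how often its letters occur near their starts. RefSeq promoter windows on GRCm38.p6, the assembly of the mm10 build named for the files, were given for 7 of the 10 genes, Tcf7, Lef1, Sp5, Sp8, Axin2, Nkd1 and Rnf43, as 14 windows of 300 bases each, 250 before an annotated start and 50 from it on. Notum, Rspo3 and Lgr5 had no entry. The letters CTTTGA or CTTTGT were searched on both strands, which read TCAAAG or ACAAAG on the other strand, and are in capitals below. The stretches are the 250 bases before the start at chr2:70474673-70474922 for Sp5, chr3:131110047-131110296 and chr3:131156044-131156293 for Lef1 windows 1 and 4 and chr11:108920099-108920348 for Axin2, all on the plus strand.
Sp5: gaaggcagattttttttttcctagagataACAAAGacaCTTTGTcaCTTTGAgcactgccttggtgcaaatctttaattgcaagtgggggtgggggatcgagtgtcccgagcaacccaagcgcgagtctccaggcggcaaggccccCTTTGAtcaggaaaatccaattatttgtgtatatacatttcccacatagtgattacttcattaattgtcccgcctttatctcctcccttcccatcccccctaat
Lef1, window 1: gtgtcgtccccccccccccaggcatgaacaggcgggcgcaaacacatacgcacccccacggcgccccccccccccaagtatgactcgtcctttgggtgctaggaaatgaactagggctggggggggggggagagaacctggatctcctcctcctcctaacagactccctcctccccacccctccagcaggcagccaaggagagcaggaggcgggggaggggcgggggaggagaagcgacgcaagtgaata
Lef1, window 4: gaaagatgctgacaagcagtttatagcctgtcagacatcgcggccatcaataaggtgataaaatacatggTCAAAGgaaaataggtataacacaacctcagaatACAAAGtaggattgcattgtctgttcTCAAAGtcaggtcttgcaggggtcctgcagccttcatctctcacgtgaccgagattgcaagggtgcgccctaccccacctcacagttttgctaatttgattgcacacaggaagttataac
Axin2: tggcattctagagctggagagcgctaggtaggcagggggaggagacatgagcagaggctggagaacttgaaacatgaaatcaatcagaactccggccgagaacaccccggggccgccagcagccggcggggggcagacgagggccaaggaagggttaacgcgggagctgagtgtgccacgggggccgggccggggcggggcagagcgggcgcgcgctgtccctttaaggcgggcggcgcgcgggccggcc

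Sp5 held 5 matches in its 300 bases, 4 of them in the stretch printed above, at -221, -212, -204 and -104 from the start, and 1 at 41 bases after it. Of all 32851 RefSeq windows, 31.2% held at least 1 match and 0.0365%, which is 12 windows, held 5 or more. Lef1 window 4, at a start inside the gene, held 3 matches, a count reached or passed by 1.14% of all windows, and 1 of 3 Sp8 windows held 1. The other 11 windows, including those of Axin2, Tcf7, Nkd1 and Rnf43, held none of these letters in the bases searched. The only Nkd1 window (chr8:88527383-88527682) lay inside the gene, which begins at 88521354, so the bases before that point were not searched. Both Rnf43 windows (chr11:87662837-87663136 and chr11:87699647-87699946) also lay inside their gene. It begins at 87662722, so the bases before that point were not searched either. Tcf7 window 1, Lef1 window 3 and Sp8 windows 2 and 3 were likewise at starts inside their genes. The ATF/CREB and AP-1 letters TGACGTCA, TGACTCA and TGAGTCA were found in 0 of the 14 windows and in 6.96% of all windows. These are matches of letters only, and binding was not measured.

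**Figure D1:**
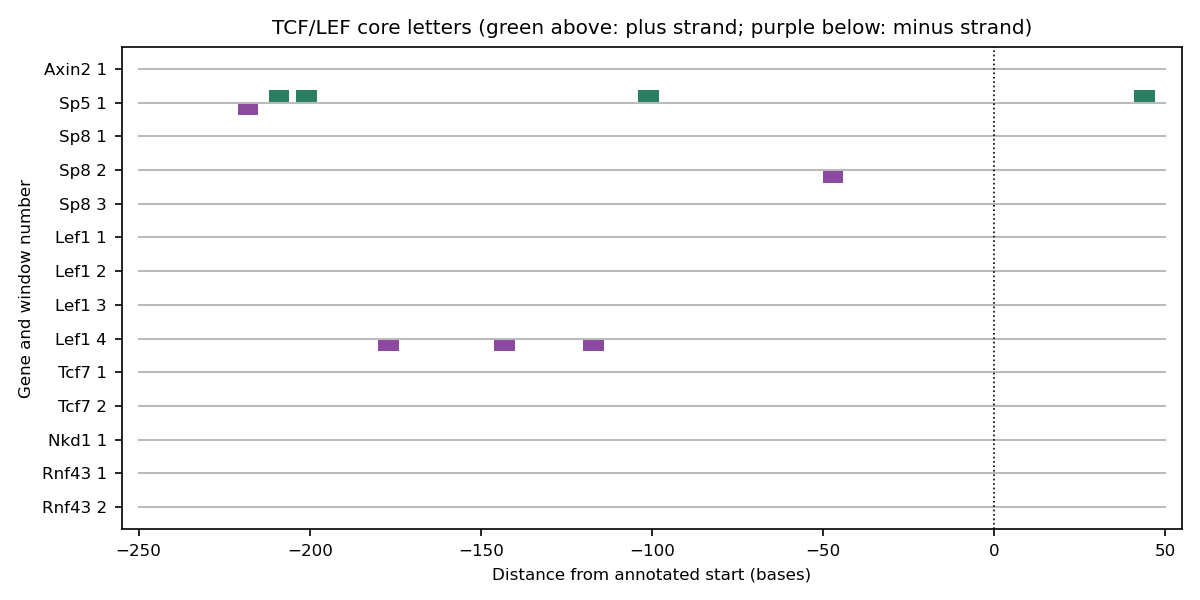
Positions of the TCF/LEF core letters in the 14 promoter windows of 7 genes, as distance from the annotated start in bases (x axis), 1 line per window; green bars above a line are matches on the plus strand and purple bars below it on the minus strand. Sp5 holds 5 matches, Lef1 window 4 holds 3 and Sp8 window 2 holds 1.

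Of the 10 genes, 8 reached 1 FPKM in at least 3 libraries and entered the test over 15159 genes, and Sp8 and Lgr5 did not. From day 0 to day 3, 5 of the 8 changed in WT (Lef1, Tcf7, Nkd1 and Rnf43 higher, Notum lower), against 25.9% of all genes tested, and 4 changed in KO (Lef1, Tcf7 and Rnf43 higher, Notum lower), against 28.1%. From day 3 to day 6, 3 changed in WT (Rspo3 and Nkd1 higher, Tcf7 lower), against 38.6%, and 3 in KO (Rspo3 higher, Tcf7 and Sp5 lower), against 32.7%. From day 6 to day 9, 2 changed in WT (Sp5 and Rspo3, lower), against 13.3%, and 0 in KO, against 8.51% (2916 genes had an unadjusted p under 0.05, and limma-voom on the recovered reads called 0 of the 8 too). Median log2 differences of the 8 genes were 0.53 in WT and 0.54 in KO from day 0 to day 3, where those of all genes tested were -0.01 and -0.01. Libraries of neighbouring days did not overlap for 8, 4 and 4 of the 10 genes over the 3 steps in WT, where this held for 45.7%, 43.4% and 24.3% of genes tested, and for 7, 4 and 3 in KO, where it held for 56.6%, 38.0% and 19.5%. With libraries set to equal sums, the calls left were Lef1 and Notum in both genotypes to day 3, Rspo3 in both and Tcf7 in WT to day 6, and none to day 9. Calls rest on limma with Benjamini-Hochberg adjustment at a threshold of 0.05, and log2 differences are of FPKM + 1, which understates changes of genes near or below 1 FPKM.

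**Figure D2:**
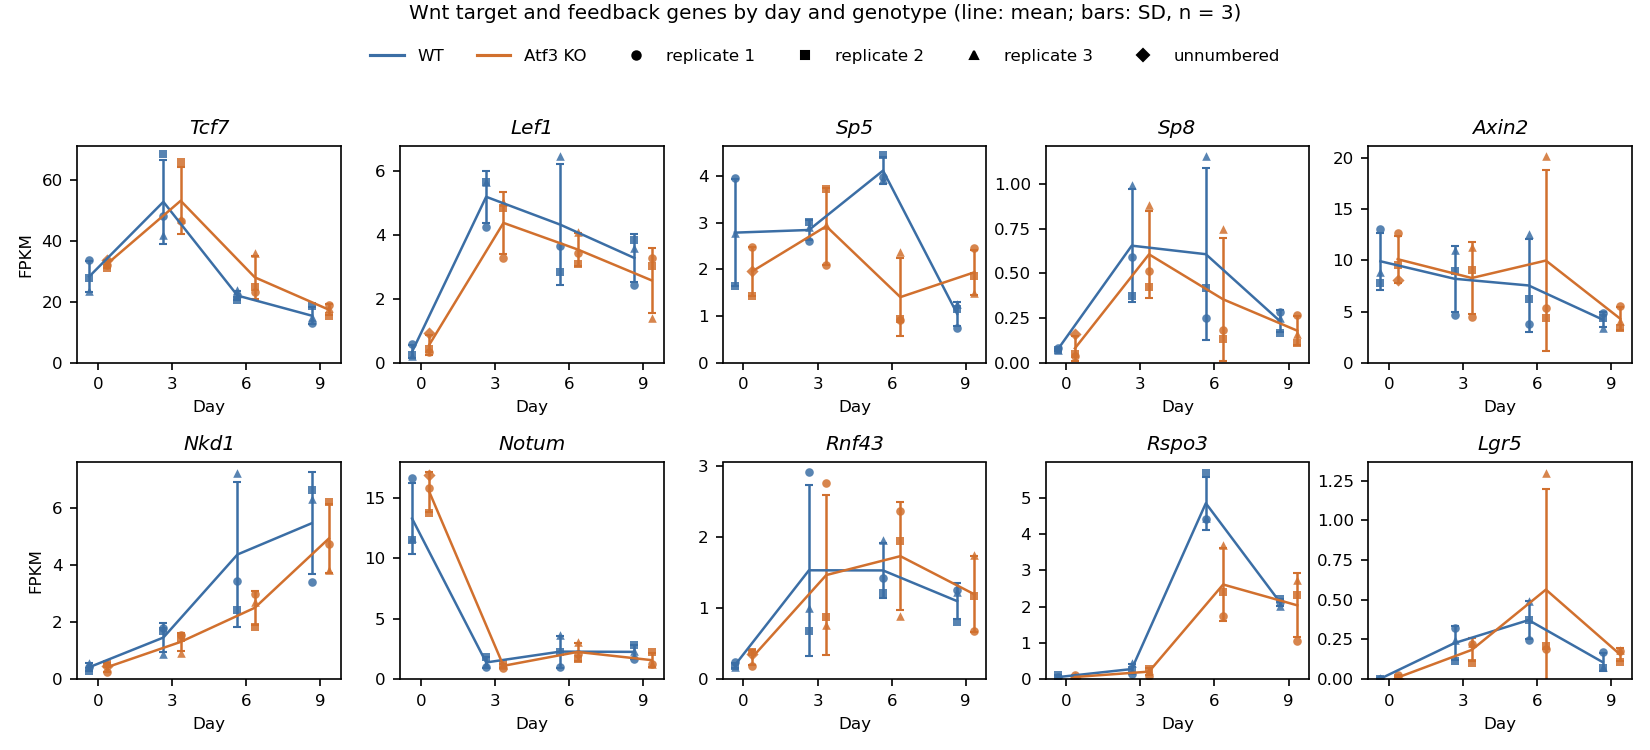
FPKM (y axis) of the 10 genes by day (x axis) in WT (blue) and Atf3 KO (orange); points are single libraries, with the marker giving the replicate number, and lines and bars are the mean and SD of 3 libraries (bars that reach below 0 end at the axis). Notum falls and Lef1 rises from day 0 to day 3 in both genotypes, and Sp5 and Rspo3 stand higher in WT than in KO at day 6.

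Tcf7 (11:52252371-52283014, minus strand), which encodes TCF1, had the highest group means of the 10 genes per kilobase in all 8 groups. In WT its replicates 1, 2 and 3 measured 33.7, 27.7 and 23.4 FPKM at day 0, 48.2, 68.3 and 41.8 at day 3, 21.8, 20.5 and 23.7 at day 6, and 13.0, 18.5 and 14.8 at day 9. In KO they measured 32.1, 31.0 and, in the library without a number, 33.7 at day 0, then 46.4, 65.8 and 47.2, then 23.1, 24.7 and 36.1, then 18.7, 15.4 and 18.0. Levels thus peaked at day 3 in both genotypes, with no overlap between day 3 and day 0 or between day 3 and day 6 libraries. The log2 rise to day 3 was 0.86 ± 0.20 (SE) in WT (limma, adjusted p = 0.00328) and 0.69 ± 0.20 in KO (adjusted p = 0.0157), and the decline to day 6 was -1.20 ± 0.20 in WT (adjusted p = 1.40e-04) and -0.91 ± 0.20 in KO (adjusted p = 0.00184). The KO rise was no longer called without KO day 0 replicate 2 (adjusted p = 0.0541) or KO day 3 replicate 2 (adjusted p = 0.0873). Its later decline to day 9 in KO, -0.64 (adjusted p = 0.0600), was called only without WT day 3 replicate 2 (adjusted p = 0.0404).

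Lef1 (3:131110471-131224356, plus strand), the other TCF/LEF member of the set, was low in stem cells and higher by day 3. WT replicates 1, 2 and 3 held 0.575, 0.223 and 0.218 FPKM at day 0, from 24 to 56 reads, and 4.25, 5.68 and 5.66 FPKM at day 3, from 514 to 662 reads. KO libraries held 0.337, 0.429 and 0.922 FPKM at day 0, from 38 to 112 reads, and 3.27, 4.85 and 5.02 FPKM at day 3, from 538 to 663 reads. Day 3 means were 15.4 times the day 0 mean in WT and 7.78 times in KO. The log2 difference was 2.21 ± 0.25 (SE) in WT (limma, adjusted p = 1.00e-06) and 1.79 ± 0.25 in KO (adjusted p = 1.45e-05). No alternative processing in which Lef1 was tested removed either call. From then on Lef1 stayed between 1.40 and 6.47 FPKM, and the steps to days 6 and 9 did not pass the test. Exons of an antisense gene, Gm43352, cover 13.7% of the Lef1 exon length and followed the same course, from a mean of 0.226 FPKM at day 0 to 4.41 at day 3 in WT. The strand used in counting is not stated, so reads of the pair cannot be told apart over that stretch.

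Sp5 (2:70474923-70477729, plus strand) encodes a zinc-finger factor that acts downstream of Wnt in the primitive streak and was the member whose course differed between genotypes. In WT it held 3.95, 1.64 and 2.77 FPKM at day 0, 2.61, 3.03 and 2.90 at day 3, 3.98, 4.45 and 3.93 at day 6, and 0.750, 1.14 and 1.25 at day 9. In KO it held 2.48, 1.42 and, in the unnumbered library, 1.96 FPKM at day 0, 2.09, 3.73 and 2.96 at day 3, 0.923, 0.928 and 2.36 at day 6, and 2.46, 1.86 and 1.50 at day 9. WT was therefore at its highest at day 6, above every other Sp5 library of days 3 and 9, and at its lowest at day 9. KO libraries of those 2 days overlapped, at 0.923 to 2.36 and 1.50 to 2.46 FPKM, and the KO step between them was not called (0.33, limma, adjusted p = 0.497). Counts behind these levels were small, 21 to 158 reads per library.

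From day 6 to day 9 Sp5 fell in WT by 1.33 ± 0.24 (SE) on the log2 scale (limma, adjusted p = 7.90e-04), and from day 3 to day 6 it fell in KO by 0.74 ± 0.24 (adjusted p = 0.0210). The KO decline was no longer called without KO day 3 replicate 2 or 3 or KO day 6 replicate 1 or 2 (adjusted p from 0.0579 to 0.108). Ordered by group mean, WT day 6 (4.12 FPKM) did not overlap the next group, KO day 3 (2.93 FPKM). It did overlap WT day 0, further down, where replicate 1 held 3.95 FPKM against 3.93 FPKM in WT day 6 replicate 3. Each later neighbour in the order overlapped the one before it: WT day 3 (2.85), WT day 0 (2.79), KO day 0 (1.96), KO day 9 (1.94), KO day 6 (1.40) and WT day 9 (1.05 FPKM).

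Sp8 (12:118846329-118852576, plus strand), a zinc-finger relative of Sp5, stayed below 1.16 FPKM or at that level in every library. Its libraries ranged from 0.0342 to 0.159 FPKM at day 0, from 0.374 to 0.998 at day 3, from 0.131 to 1.16 at day 6 and from 0.108 to 0.283 at day 9, on 2 to 69 reads. All 6 day 3 libraries stood above all 6 day 0 libraries. When the filter on low values was dropped, the step from day 0 to day 3 passed in WT, 0.61 ± 0.18 on the log2 scale (limma, adjusted p = 0.0318), and in KO, 0.56 ± 0.18 (adjusted p = 0.0457), and no other Sp8 comparison did.

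The intracellular feedback genes did not move as a pair. Axin2 (11:108920349-108950783, plus strand), the inducible axin scaffold that is widely used as a readout of the pathway, changed in none of the 3 steps of either genotype. WT libraries held 13.1, 7.80 and 8.86 FPKM at day 0, 4.66, 8.96 and 11.0 at day 3, 3.78, 6.25 and 12.6 at day 6 and 4.89, 4.33 and 3.41 at day 9. KO libraries held 12.6, 9.59 and, unnumbered, 8.13 FPKM at day 0, 4.45, 9.06 and 11.3 at day 3, 5.31, 4.41 and 20.2 at day 6 and 5.54, 3.34 and 4.04 at day 9. The spread was widest at day 6, where replicate 3 was the highest of both genotypes, and all 6 day 9 libraries were lower than all 6 day 0 libraries. Adjacent groups in the order of means, from KO day 0 (10.1 FPKM) down to WT day 9 (4.21 FPKM), all overlapped. Adjusted p-values of the 6 steps ran from 0.363 to 0.966 (limma), and the standard error of each, 0.44, was the widest among the 8 genes. An antisense gene, Gm11670, shares 3.80% of the Axin2 exon length.

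Nkd1 (8:88521354-88594884, plus strand), an inhibitor that binds Dishevelled, rose through the time course. WT libraries held 0.416, 0.275 and 0.560 FPKM at day 0, 1.80, 1.69 and 0.892 at day 3, 3.43, 2.44 and 7.25 at day 6 and 3.42, 6.65 and 6.33 at day 9. KO libraries held 0.239, 0.531 and, unnumbered, 0.460 FPKM at day 0, 1.55, 1.44 and 0.931 at day 3, 2.98, 1.84 and 2.69 at day 6 and 4.75, 6.22 and 3.83 at day 9. In KO each day lay above the one before with no overlap, and in WT the same held up to day 6. By limma the first 2 steps were called in WT, with log2 differences of 0.78 ± 0.27 (SE) to day 3 (limma, adjusted p = 0.0387) and 1.05 ± 0.27 to day 6 (adjusted p = 0.00484), against 0.70 (adjusted p = 0.0574) and 0.60 (adjusted p = 0.0965) in KO. The KO step to day 3 was called by limma-voom on the recovered reads (1.70, adjusted p = 0.0147), with a pseudocount of 0.1 (adjusted p = 0.00618), with the compared groups alone (adjusted p = 0.00920) and with equal sums without the ribosomal RNA-type genes (adjusted p = 0.0150), so whether Nkd1 was called in KO turned on the setting. The difference between the genotypes in these steps did not pass the test (-0.07 and -0.45, adjusted p = 1 for each).

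The WT call to day 3 lay near the threshold and was lost without WT day 0 replicate 1, 2 or 3 or WT day 3 replicate 1 or 2 (adjusted p from 0.0579 to 0.134). The WT call to day 6 held when any single library was left out, and was lost with equal sums (adjusted p = 0.0674) and with the compared groups alone (adjusted p = 0.0672). In KO the first step was also called without WT day 6 replicate 2, WT day 6 replicate 3 or WT day 9 replicate 1 (adjusted p = 0.0369, 0.0202 and 0.0406). Leaving out WT day 6 replicate 3, which held the highest Nkd1 level, also gave calls in KO for the second step (adjusted p = 0.0413) and for the third (adjusted p = 0.0346).

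Among the secreted and membrane proteins, Notum (11:120653788-120661175, minus strand), the extracellular enzyme that inactivates Wnt ligands, was high only in stem cells among the 4 days. It held 16.7, 11.5 and 11.7 FPKM in WT and 15.8, 13.7 and, unnumbered, 16.9 FPKM in KO at day 0. At day 3 it held 1.03, 1.85 and 1.25 FPKM in WT and 0.887, 1.25 and 1.15 FPKM in KO. The day 0 mean was 9.65 times the day 3 mean in WT and 14.1 times in KO, the widest separation of any gene in the set at that step on the side of decrease. Log2 differences were -2.58 ± 0.25 (SE) in WT (limma, adjusted p = 1.46e-07) and -2.97 ± 0.25 in KO (adjusted p = 2.03e-08). No alternative in which Notum was tested removed these calls. Later levels ran from 0.985 to 3.62 FPKM, and no later step passed the test. In KO the step from day 3 to day 6, 0.61 (adjusted p = 0.0709), was called without WT day 6 replicate 1 or 3 (adjusted p = 0.0366 and 0.0379). Exons of 2 antisense genes share part of the Notum exon length, Notumos 29.4% and Myadml2os 8.72%, and both fell alongside it, Myadml2os from a WT mean of 7.16 to 0.911 FPKM, so the Notum values are uncertain to that extent.

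Rnf43 (11:87662722-87735539, plus strand), a membrane ubiquitin ligase that removes Frizzled, was low at day 0 and higher afterwards. Day 0 libraries held 0.234, 0.179 and 0.170 FPKM in WT and 0.178, 0.380 and, unnumbered, 0.353 FPKM in KO. Day 3 libraries held 2.91, 0.680 and 1.00 FPKM in WT and 2.76, 0.872 and 0.759 FPKM in KO. All 6 day 3 values exceeded all 6 day 0 values, and replicate 1 was the highest of both genotypes. The log2 difference was 0.98 ± 0.30 (SE) in WT (limma, adjusted p = 0.0181) and 0.83 ± 0.30 in KO (adjusted p = 0.0423). Neither call held without its own day 3 replicate 1 (adjusted p = 0.142 in WT and 0.267 in KO). The WT call was also lost without WT day 0 replicate 3 (adjusted p = 0.0508), and the KO call without WT day 0 replicate 2 or 3 or any 1 KO day 0 library (adjusted p from 0.0508 to 0.125). At days 6 and 9 the 12 libraries ranged from 0.672 to 2.36 FPKM with no further call.

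Rspo3 (10:29452416-29535867, minus strand), a secreted R-spondin that amplifies Wnt signals, stayed below 1 FPKM until day 6. Day 0 and day 3 libraries held 0 to 0.438 FPKM, on 0 to 14 reads. WT values at day 3 (0.146 to 0.438 FPKM) still lay above those at day 0 (0 to 0.101 FPKM). That WT step was called by limma-voom on the recovered reads (2.42, adjusted p = 0.0343) but not by limma (0.27, adjusted p = 0.353). In KO it was called by neither (limma-voom, 1.79, adjusted p = 0.103). At day 6 WT libraries held 4.41, 5.69 and 4.45 FPKM and KO libraries 1.73, 2.40 and 3.69 FPKM. At day 9 they held 2.12, 2.21 and 2.03 FPKM in WT and 1.05, 2.33 and 2.73 FPKM in KO. Levels rose between days 3 and 6 by 2.195 ± 0.20 (SE) on the log2 scale in WT (limma, adjusted p = 6.97e-08) and by 1.55 ± 0.20 in KO (adjusted p = 4.71e-06). No alternative in which Rspo3 was tested removed those calls. WT levels then fell by 0.90 ± 0.20 to day 9 (adjusted p = 0.00489), whereas the KO difference was -0.26 (adjusted p = 0.525), and the difference between these 2 steps, 0.64, did not pass the test (adjusted p = 0.508). The order of means ran from WT day 6 (4.85 FPKM) through KO day 6 (2.61), WT day 9 (2.12) and KO day 9 (2.03) to the day 3 and day 0 groups (0.277 FPKM or less). Neighbours overlapped except WT day 6 with KO day 6 and KO day 9 with WT day 3. An antisense gene, Gm48159, shares 13.1% of the Rspo3 exon length and held a mean of 1.18 FPKM in WT and 0.857 FPKM in KO at day 6.

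Lgr5 (10:115450311-115587780, minus strand), a receptor for R-spondins, was the lowest of the 10 genes at day 0, with 0 to 3 reads per library, and 3 reads were worth 0.0228 FPKM in KO replicate 1. At day 3 it held 0.325, 0.111 and 0.245 FPKM in WT and 0.224, 0.100 and 0.228 FPKM in KO. Day 6 libraries held 0.248, 0.375 and 0.492 FPKM in WT and 0.189, 0.206 and 1.3 FPKM in KO, and day 9 libraries 0.0681 to 0.184 FPKM. The day 6 KO replicate 3 value, from 268 reads, was the only Lgr5 level above 1 FPKM. With no filter on low values, no Lgr5 comparison passed (lowest adjusted p = 0.194, limma).

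**Figure D3:**
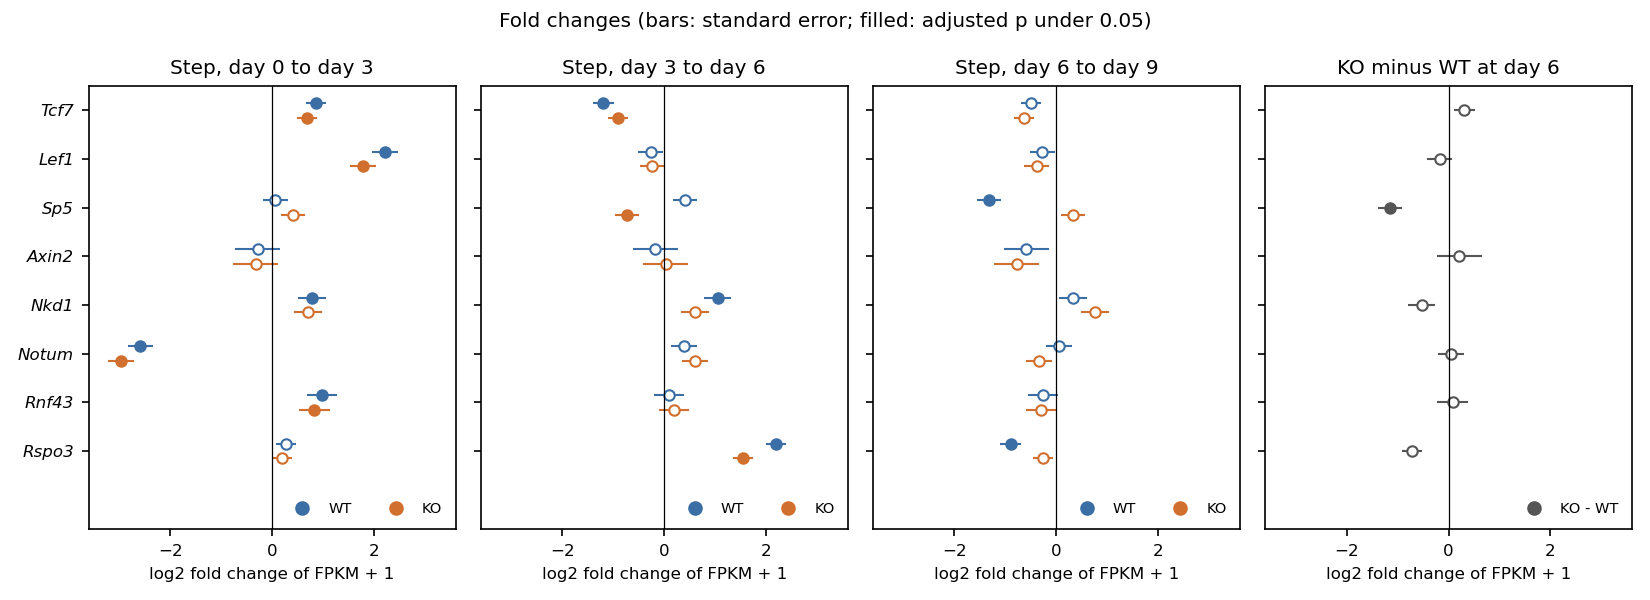
Log2 differences of FPKM + 1 (x axis) for the 8 tested genes (y axis) over each step in WT (blue) and KO (orange), and for KO minus WT at day 6 (grey); bars are standard errors and filled points passed the test (adjusted p under 0.05). Notum and Lef1 give the largest differences from day 0 to day 3 and Rspo3 from day 3 to day 6, and only Sp5 is filled in the KO minus WT panel.

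Loss of Atf3 was asked about directly by comparing KO with WT on each day. None of the 8 tested genes was called at day 0 or at day 3, where 0.0132% and 0.0132% of all genes were (168 and 121 genes had an unadjusted p under 0.05, and none of the 8 was called with limma-voom on the recovered reads). Day 3 differences were small, from -0.21 for Lef1 to 0.02 for Tcf7 on the log2 scale, with standard errors of 0.20 to 0.44. At day 6, 1 of the 8 was called, Sp5, which was lower in KO, against 0.726% of all genes. At day 9 none was called by limma or by voom, against 0.963% (789 genes had an unadjusted p under 0.05). Of the 10 genes, the 3 KO and 3 WT values did not overlap for Sp5 and Rspo3 at day 6, where this held for 7.92% of genes tested, and for Sp5 at day 9, where it held for 10.5%. At days 0 and 3 this held for 0 of the 10 genes, against 7.51% and 3.79% of genes tested.

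At day 6 the WT mean of Sp5, 4.12 ± 0.290 FPKM (SD, n = 3), was 2.93 times the KO mean, 1.40 ± 0.830 FPKM. The log2 difference was -1.14 ± 0.24 (SE; limma, adjusted p = 0.0244), and all 3 KO libraries lay below all 3 WT libraries. At day 9 the order was turned round, 1.94 ± 0.488 FPKM in KO against 1.05 ± 0.263 in WT, with a log2 difference of 0.52 that was not called (adjusted p = 0.894). The change from day 6 to day 9 differed between the genotypes by 1.66 ± 0.33 on the log2 scale (KO minus WT; limma interaction, adjusted p = 0.0159), a test that 0.963% of all genes passed and none of the other 7. Over the steps from day 0 to day 3 and from day 3 to day 6, none of the 8 differed between genotypes by that test, which 0.0132% and 0.0726% of all genes passed by limma (113 and 584 genes had an unadjusted p under 0.05), and voom called none of the 8 either. Sp5 was among the 584, with a difference of -1.15 (limma, adjusted p = 0.495).

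The day 6 call for Sp5 was close to the threshold: it was lost without WT replicate 1 or 3 or KO replicate 1 or 2 of that day (adjusted p from 0.0738 to 0.165), with the replicate number as a block (adjusted p = 0.0849), with limma-voom on recovered reads (adjusted p = 0.0632) and when libraries were set to equal sums (adjusted p = 0.315). Equal sums moved the median of all genes by 0.52, and relative to that the Sp5 difference was -1.15. Without KO day 6 replicate 3 the Sp5 difference was -1.41, and it was negative under every alternative in which Sp5 was tested. The interaction was lost without KO day 6 replicate 2 (limma, adjusted p = 0.0674) or KO day 9 replicate 1 (adjusted p = 0.0525) and with the replicate block within each day (adjusted p = 0.0543). It was also lost with equal sums (limma, adjusted p = 0.691), equal sums without the ribosomal RNA-type genes (adjusted p = 0.0508) and the compared groups alone (adjusted p = 0.165). The adjusted p of the day 6 difference ran from 0.00192 to 0.925 over 33 alternatives, the top value from a fit to the 6 day 6 libraries alone.

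Rspo3 at day 6 stood next to Sp5: the WT mean of 4.85 ± 0.728 FPKM (SD, n = 3) was 1.86 times the KO mean of 2.61 ± 0.997, with no overlap and a log2 difference of -0.73 ± 0.20 that missed the threshold (limma, adjusted p = 0.114). Without KO day 6 replicate 3 the difference was -0.93 and was called (adjusted p = 0.0221), as it was without KO day 9 replicate 1 (adjusted p = 0.0370). Other settings left it further from a call: limma-voom (adjusted p = 0.535), and limma with a pseudocount of 0.1 (adjusted p = 0.443) or the replicate block within each day (adjusted p = 0.254). With equal sums the Rspo3 difference was -0.17 (limma, adjusted p = 0.758), or -0.69 relative to the median of all genes. The other 6 tested genes had day 6 differences from -0.53 for Nkd1 to 0.31 for Tcf7 (adjusted p from 0.523 to 0.949).

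**Figure D4:**
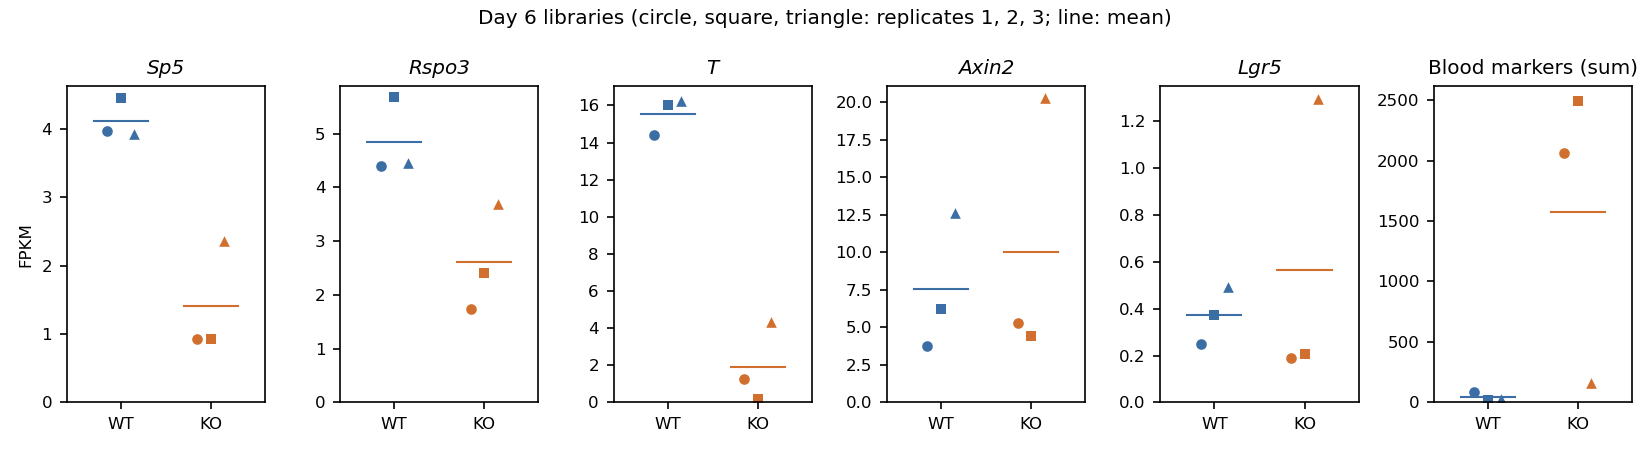
FPKM (y axis) in the 3 WT (blue) and 3 KO (orange) day 6 libraries for Sp5, Rspo3, T, Axin2 and Lgr5 and for the sum of 5 primitive blood markers; marker shapes give the replicate number and lines the means. Replicate 3 (triangle) is the KO library nearest to WT for Sp5, Rspo3, T and the blood markers and the highest of all 6 for Axin2 and Lgr5.

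Markers of the streak were lower and markers of blood higher in KO at day 6, where 0.726% of all genes tested were called and their median difference was 0.02. T, the mesoderm factor Brachyury and a Wnt target, held 14.4, 16.0 and 16.2 FPKM in WT and 1.28, 0.164 and 4.35 FPKM in KO, a log2 difference of -2.77 ± 0.61 (SE; limma, adjusted p = 0.0364). Of 7 primitive streak and early mesoderm markers, 4 (T, Mesp1, Lhx1 and Fgf8) were called lower in KO and none higher, with a median of -1.84. The summed FPKM of the 7 was 33.6, 34.5 and 103 in WT replicates 1, 2 and 3 and 6.31 to 15.8 in KO libraries, and none of the 7 was at 0 in any of the 6. WT spread was about as wide as the mean for Mesp1 (5.99 ± 6.04 FPKM; SD, n = 3), Lhx1 (11.9 ± 13.8) and Fgf8 (12.5 ± 12.4). Of 5 primitive blood markers, 4 were tested and 3 (Hbb-bh1, Hba-x and Alas2) were called higher in KO. Their sum was 2059 and 2493 FPKM in KO replicates 1 and 2 and 162 FPKM in KO replicate 3, against 23.2 to 85.6 FPKM in WT, and none was at 0. Summed extraembryonic endoderm markers were 546 and 473 FPKM in KO replicates 1 and 2 and 48.7 FPKM in KO replicate 3, against 63.7 to 197 FPKM in WT, with none of 6 called. Smooth muscle markers summed to 196 to 328 FPKM in KO and 57.1 to 156 FPKM in WT, with no overlap and none of 3 tested called. Tail bud and paraxial mesoderm markers overlapped, at 20.7 to 51.9 FPKM in KO and 33.9 to 42.7 FPKM in WT, with none of 3 tested called, and Msgn1 and Cdx4 were listed at 0 in some of these libraries. In bulk RNA, fewer cells of a type and less RNA per cell cannot be told apart. The part of these markers in the Sp5 and Rspo3 differences was not tested.

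At day 9, the other end of the Sp5 interaction, other markers differed. Cardiac muscle markers summed to 274 to 921 FPKM in KO and 76.2 to 127 in WT, with 4 of 5 called higher, where 0.963% of all genes tested were called. Endothelial markers summed to 26.9 to 30.5 FPKM in KO and 10.6 to 14.5 in WT, with 4 of 6 called higher. Trophoblast markers summed to 9.26 to 17.6 FPKM in KO and 48.3 to 91.1 in WT, with 2 of 5 tested called lower. None of these markers was listed at 0 at day 9, and their part in the Sp5 interaction was not tested.

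KO day 6 replicate 3 stood apart from the other KO libraries of that day in several of the genes. It was the highest of the 6 day 6 libraries for Axin2 (20.2 FPKM), Tcf7 (36.1 FPKM) and Lgr5 (1.3 FPKM), and of the KO libraries for Sp5, Rspo3, Sp8 (0.751 FPKM), Lef1 and Notum (3.03 FPKM). Rnf43 was lowest there (0.885 FPKM). WT day 6 replicate 3, the library with the fewest reads and 45.6% in genes of ribosomal RNA type, also stood apart. It was the highest WT library of that day for Axin2 (12.6 FPKM), Tcf7 (23.7), Lgr5 (0.492), Nkd1 (7.25), Lef1 (6.47), Notum (3.62), Sp8 (1.16) and Rnf43 (1.96). For Sp5 (3.93 FPKM) it was the lowest and for Rspo3 (4.45 FPKM) it lay between the others. With replicate 3 of both day 6 groups left out, a check chosen after seeing the data, Sp5 (-1.44) and Rspo3 (-0.98; adjusted p = 0.0389, limma) were both called lower in KO.

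Libraries with equal replicate numbers tracked each other at day 3. Axin2 held 4.66, 8.96 and 11.0 FPKM in WT replicates 1, 2 and 3 and 4.45, 9.06 and 11.3 FPKM in KO replicates 1, 2 and 3. Rnf43 held 2.91, 0.680 and 1.00 FPKM against 2.76, 0.872 and 0.759, and Tcf7 48.2, 68.3 and 41.8 against 46.4, 65.8 and 47.2. In these 3 genes, picked as examples after their values were seen, the range over replicates was wider than any difference between genotypes within a number. KO was below WT in all 3 pairs for Lef1 (KO to WT ratios of 0.769, 0.854 and 0.887), Notum (0.860, 0.677 and 0.927) and Lgr5 (0.689, 0.903 and 0.931), the last on few reads. The share of all tested genes that did the same was not counted, and their median log2 difference at day 3 was -0.02. Across all tested genes, deviations from the group mean correlated between equal numbers at day 3 with r = 0.655, 0.614 and 0.599, and these are correlations across genes, which are not independent replicates. At day 6 the same correlations were 0.265, -0.259 and -0.467 and at day 9 0.196, 0.179 and -0.459. Between unequal numbers they ran from -0.404 to -0.157 at day 3. Those ranges were -0.737 to 0.676 at day 6 and -0.630 to 0.665 at day 9. The highest joined WT replicate 2 with KO replicate 3 at day 6 and WT replicate 3 with KO replicate 2 at day 9, which equal numbers do not pair. With the number as a block, 0 of the 8 genes were called between genotypes at day 3, as without it.

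**Figure D5:**
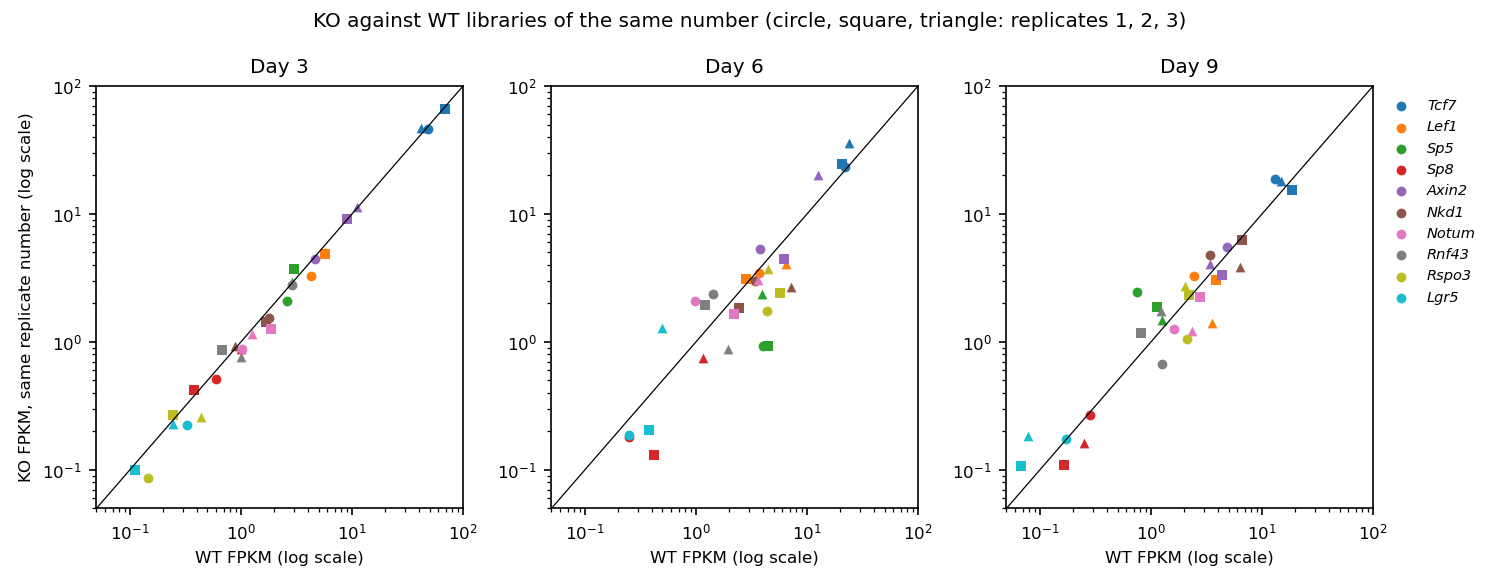
KO against WT FPKM (both axes on a log scale) for libraries of equal replicate number at days 3, 6 and 9, coloured by gene, with shapes for the number and the line of equality. Points lie close to the line at day 3, and at day 6 all points of Sp5, Rspo3, Sp8 and Nkd1 lie below it.

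Pathway genes outside the set were read in 3 further lists, described by counts. Of 22 core components, from beta-catenin and the destruction complex to TCF partners, all were tested, none differed between genotypes at any day, and 9 changed in WT from day 3 to day 6, 5 higher and 4 lower, a share near the 38.6% of all genes. Bcl9l, a beta-catenin coactivator, went from 4.62 ± 1.09 to 20.1 ± 10.6 FPKM (SD, n = 3; log2 difference 1.81, limma, adjusted p = 1.38e-05), Tcf7l2 from 0.732 ± 0.328 to 6.21 ± 4.47 (1.90, adjusted p = 7.13e-05) and Amer1 from 1.78 ± 0.599 to 6.75 ± 1.87 (1.47, adjusted p = 1.23e-04). Tle4, a corepressor of TCF proteins, fell from 16.6 ± 5.66 to 4.41 ± 0.915 FPKM (-1.66, adjusted p = 7.73e-04). So while Tcf7 fell at this step, its relative Tcf7l2 rose, and in KO Tcf7l2 was likewise called higher (1.24, adjusted p = 0.00361). The median difference of the list, 0.11, stood beside -0.01 for all genes.

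Of 44 Wnt ligands, receptors and secreted inhibitors, 35 were tested and 21 changed in WT from day 3 to day 6, 15 higher and 6 lower, with a median of 0.43, beside 38.6% and a median of -0.01 for all genes. The secreted antagonists Frzb (0.124 ± 0.0487 to 6.36 ± 0.919 FPKM; SD, n = 3) and Dkk1 (0.496 ± 0.173 to 6.93 ± 2.19 FPKM) and the receptor Fzd2 (5.75 ± 0.854 to 39.8 ± 13.3 FPKM) rose together with Rspo3, and the antagonist Sfrp2 fell from 7.91 ± 0.788 to 1.79 ± 0.348 FPKM. Between genotypes, 3 of the 35 were called at day 6, beside 0.726% of all genes. Sfrp1, another secreted antagonist, was lower in KO, 2.24 ± 1.35 against 16.9 ± 3.42 FPKM (log2 difference -2.52, limma, adjusted p = 4.16e-05). The ligand Wnt6 was lower, 0.673 ± 0.401 against 3.55 ± 1.14 FPKM (-1.44, adjusted p = 8.13e-04), and Wnt5a, a ligand best known outside the beta-catenin route, was higher, 10.5 ± 3.77 against 4.39 ± 1.62 FPKM (1.08, adjusted p = 0.0221). Wnt6 was the one ligand or inhibitor called at day 9, where 0.963% of all genes were, again lower in KO (-1.20, adjusted p = 0.00313).

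Of 20 other genes known to respond to Wnt, 17 were tested. From day 3 to day 6 in WT 10 rose and 2 fell, with a median of 1.25, beside 38.6% called and a median of -0.01 for all genes. The homeobox genes Msx2 (0.444 ± 0.272 to 14.9 ± 3.87 FPKM; SD, n = 3) and Cdx2 (1.21 ± 0.0942 to 31.0 ± 2.83 FPKM) were among those that rose. Nkd2, a relative of Nkd1, fell from 2.63 ± 0.158 to 0.622 ± 0.245 FPKM over the step in which Nkd1 rose, and Nodal fell from 21.8 ± 6.35 to 4.22 ± 1.01 FPKM. At day 6, 3 of the 17 were called, beside 0.726% of all genes, and the median difference was -0.15. T and the growth factor gene Fgf8 (2.06 ± 1.12 against 12.5 ± 12.4 FPKM, limma, adjusted p = 0.0414) were lower in KO and Cd44, an adhesion receptor, was higher (9.77 ± 3.93 against 3.32 ± 2.35 FPKM, adjusted p = 0.0414). None of the 17 was called between genotypes at day 0, 3 or 9.

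Likeness of course was taken as Pearson's r over the 8 group means of log2(FPKM + 1), a description over points that share libraries, among 7723 genes reaching 5 FPKM in some group. The gene most like Notum was its overlapping partner Myadml2os (r = 0.997), and the next were Gss (0.994) and Cdk2ap2 (0.994). For Rspo3 the closest were Ccdc28b (0.995), Cyp26a1 (0.993), which encodes a retinoic acid-degrading enzyme, and Tmc4 (0.993). Lef1 was closest to Npdc1 (0.992), Tcf7 to Swap70 (0.988), Nkd1 to Pgf (0.991), which encodes placental growth factor, and Rnf43 to Lad1 (0.995). Axin2 was closest to Cd68 (0.977), while Sp5 had the weakest best match of the 8, Ap3s2 (0.928). Within the set, Lef1 and Rnf43 ran together (0.958), whereas Notum ran opposite to Lef1 (-0.951) and Axin2 opposite to Nkd1 (-0.907). Thus the 10 genes did not share a single course: Notum was highest at day 0, Tcf7 peaked at day 3, Rspo3 at day 6, and mean Nkd1 was highest at day 9.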

How the data were processed

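RNA-seq was measured in 24 libraries. The submitters' processing notes list FastQC (0.11.9) and Trimmomatic (0.39) for reads, HISAT2 (2.2.1) on mm10, featureCounts (2.0.1), and DESeq2 (1.30.1) under R 4.1.0. The deposited values are FPKM for 53465 genes, and how the authors computed them, and the strand setting, are not stated in those notes. GENCODE vM21 exon lengths (53360 genes) turned them back into reads: per library 95.5% to 96.9% of low values came within 0.05 of whole reads, whose sum is the depth. FPKM were already scaled by median-of-ratios. A KO day 0 column tied to its group only is called unnumbered. No 2 libraries of a group agreed within sampling noise (chi-square per degree of freedom 7.15 to 271).

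Log2(FPKM + 1) of the 15159 genes with at least 1 FPKM in at least 3 libraries was fitted with limma 3.58.1 in R 4.3.3 (8 groups; trended prior with 4.02 degrees of freedom beside 16 residual; two-sided; Benjamini-Hochberg adjustment over those genes). The fit was also run on simulated reads with the same added spread for every gene. That run checks the code and not the calls given here, since the spread of these libraries was not copied. Genes, lists and tests were chosen with earlier results of these data known. Named are the 10 genes, Atf3, up to 4 called genes per list by adjusted p (day 6, day 9, WT step to day 6) and the closest genes by r; Tcf7l2 in KO was named after its value was seen. Alternatives were other pseudocounts, filters and scalings, voom, replicate blocks and leaving out each library. The replicate blocks, run as alternatives, used equal numbers on all days, although libraries of equal number tracked each other at day 3 only. At day 6 their correlations were 0.265, -0.259 and -0.467. Figures and tables were made in Python 3.11.15 (pandas 2.3.3, numpy 2.4.6, matplotlib 3.10.9).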

Additional observations from a re-analysis of the deposited data

Results flagged for a closer look

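The change in Sp5 from day 6 to day 9 differed between the genotypes by a direct test of the difference, 1.66 on the log2 scale (KO minus WT; limma interaction, adjusted p = 0.0159). That call was lost in 6 of 33 alternatives, among them equal sums (limma, adjusted p = 0.691) and the compared groups alone (adjusted p = 0.165). All 3 WT libraries of day 6 were above all 3 of day 9, by group means of 4.12 and 1.05 FPKM. The KO means were 1.40 and 1.94 FPKM. The summed primitive streak markers went from 33.6, 34.5 and 103 FPKM in WT replicates 1, 2 and 3 at day 6 to 2.85 to 5.49 at day 9, and from 6.31 to 15.8 in KO to 3.17 to 26.5. At day 9 the summed cardiac muscle markers were 274 to 921 FPKM in KO and 76.2 to 127 in WT, the endothelial markers 26.9 to 30.5 and 10.6 to 14.5, and the trophoblast markers 9.26 to 17.6 and 48.3 to 91.1. At day 6 the summed primitive blood markers were 162 to 2493 FPKM in KO and 23.2 to 85.6 in WT. The part of these markers in the Sp5 result was not tested.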

How the results depend on the processing

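Counts of called genes among the 8 tested moved as follows. A filter at a mean of 5 FPKM left Sp5, Lef1, Nkd1, Notum, Rnf43 and Rspo3 out of the test. Losses of their calls under that filter were therefore fixed in advance. For KO minus WT at day 6 (1 gene) the count was 0 with that filter. It was also 0 with equal sums, with equal sums without the ribosomal RNA-type genes, with the compared groups alone, with voom and with either replicate block. Without replicate 3 of both day 6 groups the count was 2. For the change from day 6 to day 9 (1 gene) it was 0 with that filter, with either equal-sum scaling, with the compared groups alone and with the replicate block within each day. In the steps, the filter at a mean of 5 FPKM left 1 call in WT and KO to day 3, 1 in WT and KO to day 6 and 0 in WT to day 9. Equal sums left 2 in WT and 2 in KO to day 3. In WT to day 9 (2 genes), 1 was left with a pseudocount of 0.1, with equal sums without the ribosomal RNA-type genes and with the compared groups alone. Equal sums kept the count at 2 there but with neither Sp5 (adjusted p = 0.147) nor Rspo3 (adjusted p = 0.831); it called Nkd1 (1.27, adjusted p = 0.00562) and Notum (0.84, adjusted p = 0.0486) higher instead, 0.48 and 0.05 relative to the median of all genes. In KO to day 6 (3 genes) equal sums called 2, Rspo3 and Nkd1, of which only Rspo3 was among the 3. In KO to day 9 (0 genes), Nkd1 made 1 with either equal-sum scaling and without replicate 3 of both day 6 groups. Where the cause is not in the construction, it was not tested.

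Leaving out 1 library gave 0 to 2 calls for KO minus WT at day 6 and 0 to 1 for the change from day 6 to day 9, 3 to 5 in WT and 2 to 5 in KO to day 3, 3 to 4 and 2 to 5 to day 6, and 2 to 2 and 0 to 1 to day 9, with 0 to 0 elsewhere. Among the 32 gene results that were called or reached 0.5 on the log2 scale, 2 reversed, both with equal sums: Nkd1, KO minus WT at day 6, became 0.0592 (adjusted p = 0.887), and Axin2, WT from day 6 to day 9, became 0.365 (adjusted p = 0.551). That scaling moved the median of all genes by -0.47 to 0.79 across comparisons, and relative to it the values were -0.46 and -0.42. Over all 104 values of the 8 genes in 13 comparisons, equal sums changed the sign of 17, among them Tcf7 (-0.50 to 0.55), Lef1 (-0.27 to 0.61) and Rnf43 (-0.27 to 0.37) in WT from day 6 to day 9 and Lef1 between genotypes at day 6 (-0.18 to 0.43). None of the 17 was a call, and relative to the median of all genes 3 of the 104 changed sign. The replicate block within each day could not give steps between days, so a block with the number shared over days was added after seeing the data. Either block removed the Sp5 call at day 6 (adjusted p = 0.0849 and 0.0602), and the shared block also the Nkd1 step in WT (0.0648) and the Rnf43 step in KO to day 3 (0.0751). Of 271 values for single genes under alternatives other than leaving out a library, 228 kept direction and side of the threshold. Precision of Sp5, Sp8, Lgr5 and Rspo3 is limited by few reads.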
